A study of Homo sapiens with 4 samples.

Results

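Distal chromosome 10q was taken as every region of the 3 deposited lists that starts at or beyond 100 Mb on chromosome 10 (hg19). It held 2107 of 78859 replication initiation regions of WT cells, 2815 of 159667 initiation regions of RepID KO cells and 328 of 24222 RepID-binding regions. In all, 5250 of 262748 regions were members, and 8472 regions of chromosome 10 that start below 100 Mb served as the comparison. The stretch was chosen by measured values, since its numbers of KO and WT regions stood out in the same lists. The numbers of KO and WT regions along it, and the share of WT origins kept in KO cells, are therefore given as a description with no test.

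Initiation was mapped by sequencing nascent strands, the short DNA strands made at newly fired origins, from asynchronous HCT116 cells, a colorectal carcinoma line. WT cells were compared with cells in which RepID had been stably depleted with CRISPR-Cas9, as stable clones selected with puromycin. Whether the sequenced KO cells were 1 such clone or several is not given in the sources used here. Binding was mapped by an anti-Flag ChIP in U2OS cells, an osteosarcoma line that expressed Flag-tagged RepID, so binding and initiation were measured in different lines. Regions of both HCT116 lists had been called against the same HCT116 genomic DNA, which was not analysed here. Each list came from 1 library, and its depth is unknown, so no value has a replicate error. The 95% intervals below (exact for shares, densities and ratios of counts, Newcombe's for differences of shares) cover counting error only, and they are too narrow because neighbouring regions are not independent.

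Replication starts at many origins along a chromosome, and only some of the licensed origins fire in any one cell cycle. RepID, the product of PHIP, is a WD40-repeat protein that acts as a substrate receptor of the CUL4-DDB1 ubiquitin ligase and binds chromatin at a subset of origins. Nascent strand reads depend both on how often an origin fires and on how many copies of its DNA a cell holds. HCT116 cells are near-diploid and are known to carry extra material from distal 10q. Copy number along the chromosome was not analysed here, so DNA copies, firing per copy and sequencing depth cannot be told apart in these lists.

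The question was how initiation in WT and KO cells and RepID binding are laid out along distal 10q. From 100 Mb to chr10:131367200, KO regions covered 53.5% of the sequence and WT regions covered 21.9%. Below 100 Mb the KO-covered share was 17.0% and the WT-covered share 8.66%. That part includes chr10:39069201-42455800, 3387 kb with no KO or WT region, which lowers its covered shares and its densities per Mb somewhat. Beyond 131367200 the order turned over, with 33.1% of the last 4.16 Mb covered by WT regions and 1.35% by KO regions. The stretch thus had 2 portions, named here the inner distal stretch (31.4 Mb) and the KO-poor end. The edge between them was set, after the lists were seen, at the last KO region before the first gap of 500 kb or more with no KO region.

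**Figure D1:**
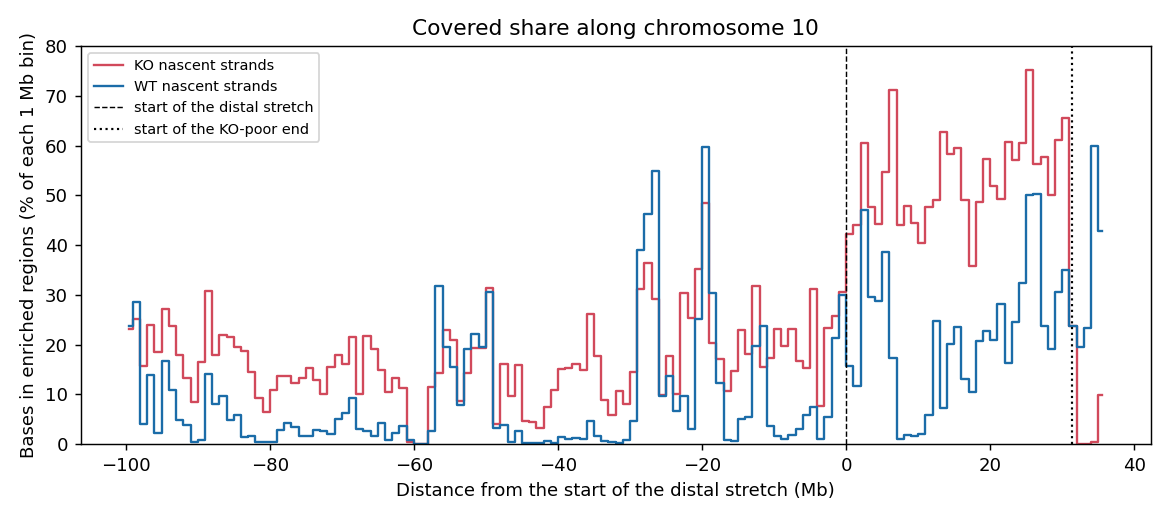
Share of each 1 Mb bin covered by WT and by KO initiation regions along chromosome 10, in percent, against distance in Mb from the start of the distal stretch (dashed line), with a dotted line at the start of the KO-poor end. KO-covered shares lie between 35.8% and 75.1% in the 31 bins of the inner distal stretch and at or below 9.88% in the bins from 132 Mb on.

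In numbers of regions the inner distal stretch carried 1786 WT and 2807 KO regions. This is 56.9 WT regions and 89.5 KO regions (86.2 to 92.9) per Mb. Below 100 Mb there were 25.1 WT regions (24.2 to 26.1) and 51.4 KO regions (50.02 to 52.8) per Mb. The KO-poor end held 321 WT regions, 77.2 per Mb (69.0 to 86.1), and 8 KO regions, 1.92 per Mb (0.831 to 3.79). WT regions were therefore denser beyond the edge than before it, while KO regions nearly ran out.

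The number of KO regions per WT region did not follow the covered share. It was 1.57 (1.48 to 1.67) in the inner distal stretch, 2.05 (1.95 to 2.15) below 100 Mb and 2.02 over both whole lists. In the KO-poor end it was 0.0249 (0.0107 to 0.0497). Over all of distal 10q it came to 1.34 (1.26 to 1.41). The ratio of KO-covered to WT-covered bases was 2.45 in the inner distal stretch, 1.97 below 100 Mb and 0.0406 in the KO-poor end. In these full lists a lower ratio of counts thus went with a higher ratio of covered bases in the inner distal stretch. With the KO list limited to as many top-scoring regions as the WT list holds, the order of the counts turned, to 1.03 KO regions per WT region over all of distal 10q and 0.945 below 100 Mb.

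KO regions were also wider and higher in score in the inner distal stretch. The median KO region was 4400 bp wide in the inner distal stretch and 2800 bp below 100 Mb, against 3000 bp in the whole KO list. Of the KO regions there, 15.7% were 10 kb or wider, against 1.28% below 100 Mb and 2.11% on the other autosomes. The shares of such wide WT regions were 5.88% and 5.25%, and the median WT widths were 2600 and 2200 bp. The authors' score, a whole number whose meaning is not stated, had a median of 239 for KO regions of the inner distal stretch and 125 below 100 Mb. For WT regions these medians were 132 and 115. Neither list holds regions less than 800 bp apart, and the part of this joining in the counts was not tested beyond merging regions under 1 kb apart, which took the KO per WT count from 1.34 to 1.22 over distal 10q and left it at 2.05 below 100 Mb.

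**Figure D2:**
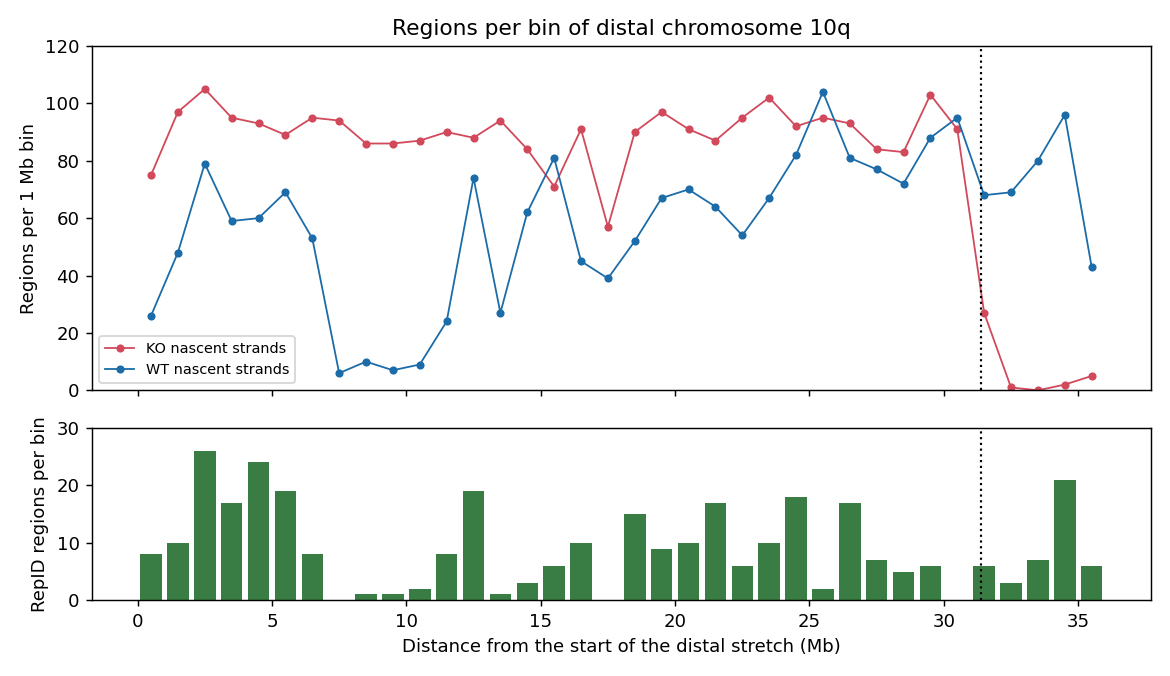
Number of WT and KO regions (upper panel) and RepID regions (lower panel) that start in each 1 Mb bin of distal 10q, against distance in Mb from its start, with a dotted line at the start of the KO-poor end and a last bin that is partly filled. KO counts stay between 57 and 105 in the 31 bins before the bin of the edge and drop to 1, 0, 2 and 5 in the last 4 bins, where WT counts are 69, 80, 96 and 43.

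Along the inner distal stretch the KO list was more even than the WT list. KO counts per 1 Mb bin ran from 57 to 105 with a median of 91 and a coefficient of variation of 10.5% over 31 bins. WT counts ran from 6 to 104 with a median of 62 and a coefficient of variation of 47.4%. Over the 98 bins below 100 Mb that held any WT or KO region, the coefficients of variation were 38.1% for KO and 94.9% for WT counts. For the covered shares they were 17.1% for KO and 62.5% for WT in the inner distal stretch. The KO count was highest in the bin at 102 Mb, with 105 regions, and lowest at 117 Mb, with 57. The WT count was highest at 125 Mb, with 104 regions, and lowest at 107 Mb, with 6.

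The 4 bins from 107 to 111 Mb held few WT regions, whereas their KO counts were close to the 95 and 90 of the bins on either side. They contained 6, 10, 7 and 9 WT regions, which covered 1.04% to 2.0% of each bin. The same bins contained 94, 86, 86 and 87 KO regions, which covered 40.4% to 47.9%. The bin at 107 Mb had the highest KO to WT ratio of the inner distal stretch, 15.7, and the bin at 115 Mb the lowest, 0.877 (71 KO and 81 WT regions). The longest stretch with no WT region on distal 10q, chr10:107459401-108095600, spanned 636 kb and held 59 KO regions and no RepID region. Bins with at most 2% of their sequence in WT regions had a median KO-covered share of 44.2% here (4 bins) and 10.9% below 100 Mb (34 bins). In bins with 20% or more in WT regions the medians were 57.2% (18 bins) and 27.4% (14 bins). KO coverage was thus higher than below 100 Mb in poor and in rich WT bins.

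**Figure D3:**
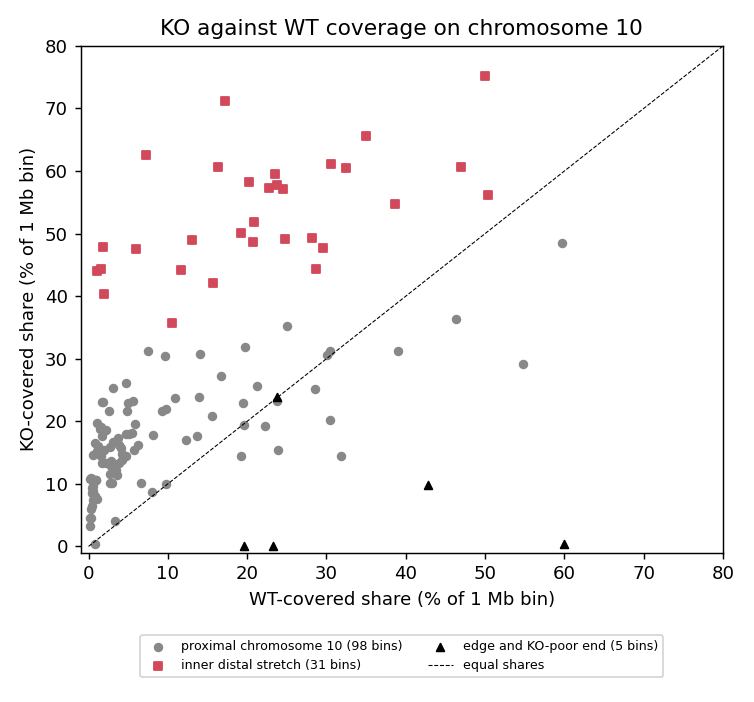
KO-covered against WT-covered share of each 1 Mb bin of chromosome 10, both in percent, with a dashed line of equal shares. Of the 31 bins of the inner distal stretch (squares) 30 have 40% KO coverage or more, against 1 of the 98 proximal bins (circles). Of the triangles, the bin of the edge lies at 23.8% and the last 4 bins at or below 9.88%.

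Across bins, Spearman's rho between WT and KO covered shares was 0.53 over the 31 bins of the inner distal stretch and 0.70 over the 98 bins below 100 Mb. Between the counts it was 0.21 and 0.70. Bins of a chromosome share their libraries and are not replicates, so these are descriptions. Set against all 2734 autosomal 1 Mb bins, 30 of the 36 distal bins had a KO-covered share of 40% or more, against 5.05% of autosomal bins and 1 of the 98 proximal bins. Such bins were not particular to chromosome 10, since 107 of 2600 bins of the other autosomes also reached 40%. In the last 4.16 Mb of chromosomes 16, 17 and 8, KO regions covered 57.8%, 49.3% and 48.9%, the highest of the other 21 autosomes. The lowest was 14.1%, on chromosome 9. KO regions outnumbered WT regions more than 2-fold in 9 of 36 distal bins, against 64.6% of autosomal bins. The reverse, more than 2-fold more WT than KO regions, was found in 5 of 36 distal bins and in 1.02% of autosomal bins.

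A single split point was then sought in each measure along the chromosome, as the position that best separates 2 means. For the bins before the edge, the KO-covered share split at 100 Mb, from a mean of 17.4% ± 8.16 (SD over 98 bins) to 53.4% ± 9.11 (SD over 31 bins). The median KO width split at the same place, from 2848 to 4468 bp, and so did the median KO score, from 124 to 243. These measures describe the same KO regions, and the bound at 100 Mb was itself chosen with these lists known. Their shared position is therefore no independent support for it. The WT-covered share split elsewhere, at 71 Mb, from 6.04% to 18.7%. In the bin at 99 Mb, 84 WT regions covered 30.04% and 92 KO regions covered 30.7%. In the bin at 100 Mb, 26 WT regions covered 15.7% and 75 KO regions covered 42.2%. Between these 2 bins the KO-covered share was thus higher in the distal one and the WT-covered share lower.

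In steps of 100 kb the KO-covered share was 58.2% at 99.8 Mb, 13.6% at 99.9 Mb, 74.0% at 100 Mb, 74.6% at 100.1 Mb and 67.8% at 100.2 Mb. The WT-covered share of the same steps was 15.2%, 1.4%, 66.6%, 64.2% and 17.2%, so at this scale both lists rose from the last proximal step to the first distal one. Farther in, the KO-covered share went down to 29.0% at 100.5 Mb, 17.0% at 100.8 Mb and 13.4% at 100.9 Mb, and was 47.6% at 101.1 Mb. The split at 100 Mb is thus one of means over many bins, since single steps on the distal side were as low as the last proximal one and a proximal step reached 58.2%. The last KO region below the bound was chr10:99970401-99974000 (score 200) and the first beyond it chr10:100003801-100012400 (score 472). The last WT region below was chr10:99911801-99913200 (score 123) and the first beyond chr10:100004201-100005600 (score 51), which lay inside that KO region. Neither WT region had a RepID region within 2 kb, and the RepID regions nearest to the bound lay at chr10:99894384-99895058 and chr10:100026028-100026407.

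The log2 ratio of KO to WT counts per bin (1 added to each) split at 131 Mb, with a mean of 0.92 over the 31 bins from 100 Mb and -4.13 over the 5 bins after. Since at least 5 bins were required on each side, 131 Mb was the latest position this search could return. In bins of 500 kb, where later positions were allowed, the split was at 131.5 Mb. In the bin at 131 Mb the KO-covered share was 43.0%, 65.6%, 71.4% and 58.2% in the first 4 steps of 100 kb and 0 from 131.4 Mb on. The WT-covered share of those emptied steps was 9.40% to 27.8%. The last KO region before the edge, chr10:131347001-131367200, was 20200 bp wide with a score of 1174. The first WT region beyond it was chr10:131412001-131414800. KO regions thus stopped within 1 step of 100 kb, right after a wide, high-scoring region.

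Beyond the edge 3 long gaps had no KO region. They were chr10:131367201-132294600 (927 kb, 49 WT regions), chr10:132294801-134434600 (2140 kb, 171 WT and 24 RepID regions) and chr10:134926801-135454800 (528 kb, 45 WT regions). Within the inner distal stretch the longest gap in the KO list was 150 kb and held no WT region. The autosomes had 32 KO-free gaps of 500 kb or more, of which 6 held at least 10 WT regions. The 3 outside distal 10q, on chromosomes 4, 9 and 16, held 14, 12 and 42. The last 4.16 Mb of the other 21 autosomes had 0.603 to 2.41 KO regions per WT region, with a median of 0.919, and at least 178 KO regions each. The 0.0249 of the KO-poor end follows in part from where its edge was drawn, so these values are set side by side and not ranked.

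The 8 KO regions beyond the edge were not spread evenly. The first 3 were chr10:132294601-132294800, chr10:134434601-134436400 and chr10:134924601-134926800, with scores of 34, 111 and 167. The other 5 lay after chr10:135454800, close to the end of the chromosome. Among them was chr10:135477201-135504200, 27000 bp wide, which had the highest KO score of distal 10q (6106). The WT region of highest score, chr10:135477801-135502400 (17152), lay wholly inside it and was bound by RepID at chr10:135490741-135491402. The outermost part of 10q is known to carry repeats nearly identical to sequence on 4q, so the placement of reads there is uncertain.

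A WT origin that shared 1 bp or more with a region of the KO list was called kept. In the inner distal stretch 1645 of 1786 WT origins, 92.1% (90.8 to 93.3), were kept, against 60.6% of the whole WT list. Below 100 Mb 1499 of 2514, 59.6% (57.7 to 61.6), were kept, 32.5 percentage points less than in the inner distal stretch, whose limits were themselves drawn on KO regions. In the KO-poor end 5 of 321, 1.56% (0.508 to 3.60), were kept. The share over all of distal 10q, 78.3%, was thus an average of 2 unlike portions. A larger KO-covered share also makes overlap more frequent by itself. KO regions covered 83.6% of the WT-region bases of the inner distal stretch and 45.1% of its other bases, a ratio of 1.85. Below 100 Mb these shares were 43.5% and 14.5%, a ratio of 3.004.

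**Figure D4:**
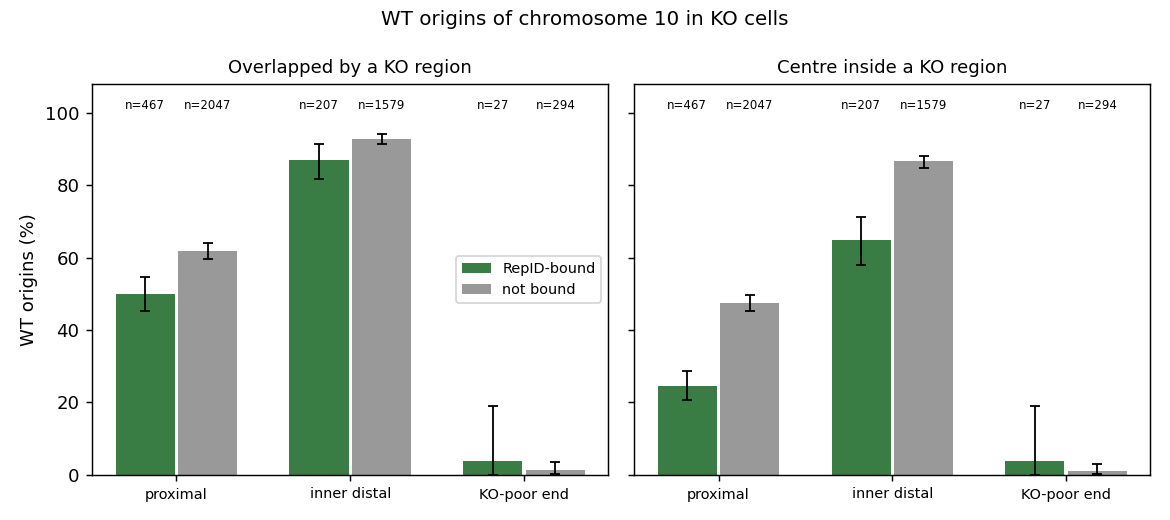
Share of WT origins overlapped by a KO region (left) or with their centre in one (right), in percent, for RepID-bound and unbound origins of proximal chromosome 10, the inner distal stretch and the KO-poor end, with exact 95% intervals that cover counting error only. On the left, bound and unbound shares are 49.9% and 61.8%, 87.0% and 92.8%, and 3.70% and 1.36%.

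Origins with a RepID region within 2 kb were called bound. RepID bound 234 of the 2107 distal WT origins, 11.1% (9.80 to 12.5), against 18.7% of the whole WT list. Below 100 Mb 18.6% (17.1 to 20.2) were bound, and the difference was -7.47 percentage points (-9.49 to -5.43). The share is taken over WT origins, whose number entered the choice of the stretch, so this difference too is a description. With the upper-scoring RepID regions only, the shares were 6.60% on distal 10q and 13.8% below 100 Mb, and with the upper-scoring WT origins only, 17.0% and 27.2%, so the size of the share depended on these choices and its order did not. The density of RepID regions did not show this difference, with 9.15 per Mb in the inner distal stretch, 9.86 (7.08 to 13.4) in the KO-poor end and 8.16 (7.61 to 8.74) below 100 Mb. RepID regions were thus about as dense in the inner distal stretch as below 100 Mb, whereas WT origins were denser there. Bound distal origins were wider than unbound ones, with median widths of 3900 and 2600 bp, and had higher median scores, 368 against 121.

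In the inner distal stretch the kept share of bound origins was below that of unbound ones. There 180 of 207 bound origins, 87.0% (81.6 to 91.2), were kept, against 56.0% of all bound origins, and 1465 of 1579 unbound origins, 92.8% (91.4 to 94.0), against 61.7% of all unbound origins. The difference was -5.82 percentage points (-11.2 to -1.67), against -5.63 points over the whole lists. Over all of distal 10q, with no edge applied, 77.4% of bound and 78.4% of unbound origins were kept, a difference of -1.08 points (-7.13 to 4.18), and with a gap of up to 2 kb allowed the order turned to 82.9% and 82.1%. Below 100 Mb it was -12.0 points (-16.9 to -6.96), with 233 of 467 bound origins kept. The intervals of the inner distal stretch and of the part below 100 Mb overlap. That of the whole lists (-6.52 to -4.75) lies above the interval below 100 Mb. In the KO-poor end 1 of 27 bound origins and 4 of 294 unbound origins were kept, too few for a comparison. Binding did not enter the choice of the stretch, but KO regions enter every value of this comparison.

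Stricter readings of kept gave larger differences. With the centre of the WT origin required to lie in a KO region, which held for 44.9% of the whole WT list, 64.7% (57.8 to 71.2) of bound and 86.5% (84.7 to 88.2) of unbound origins of the inner distal stretch were kept. The whole-list shares were 29.7% of bound and 48.4% of unbound origins. The difference was then -21.8 points (-28.7 to -15.3) in the inner distal stretch, -22.7 points below 100 Mb and -18.6 points over the whole lists, so a gap of this kind was not particular to distal 10q. With at least 50% of the origin covered, which held for 45.5% of the whole list, the shares were 73.9% and 89.1%, against 29.4% and 49.2% of bound and unbound origins of the whole list. By overlap of 1 bp or more, which a wider origin meets more easily, the kept share of the inner distal stretch was higher for wider origins. Of bound origins under 2 kb, 27 of 42 (64.3%) were kept, against 522 of 598 unbound ones (87.3%). From 2 to 5 kb the shares were 88.9% and 94.6%, and from 5 to 10 kb 93.6% and 99.2%. At 10 kb or more all 37 bound and all 68 unbound origins overlapped a KO region. In the whole WT list, bound origins of these 4 width classes were kept at 34.8%, 51.8%, 69.0% and 82.7%, and unbound origins at 51.7%, 65.0%, 75.9% and 83.7%. By 1 bp overlap, the rise with width and the lower share of bound origins under 10 kb were thus present across the whole list. By centre, all origins of these classes were kept at 83.1%, 83.7%, 85.7% and 86.7% in the inner distal stretch. In the whole list the centre shares were 44.4%, 46.3%, 46.0% and 37.2%, and those at 50% coverage 45.0%, 48.3%, 45.3% and 32.5%. Both were lowest in the widest class, whereas 50% shares of the inner distal stretch rose from 84.1% to 96.2%. There, by centre, 78.4% of bound and 91.2% of unbound origins of 10 kb or more were kept.

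Seen from the binding sites, 278 of the 287 RepID regions of the inner distal stretch (96.9%) had a WT region within 2 kb, against 91.1% of the whole RepID list. In the KO-poor end 36 of 41 (87.8%) did. A KO region lay within 2 kb of 259 of the 287 (90.2%), against 51.8% of the whole RepID list, of 418 of 816 (51.2%) below 100 Mb and of 1 of 41 (2.44%) in the KO-poor end. Direct overlap, which cannot be more frequent, was found for 67.9% of the RepID regions in the inner distal stretch, 27.3% below 100 Mb and 27.9% of the whole list.

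**Figure D5:**
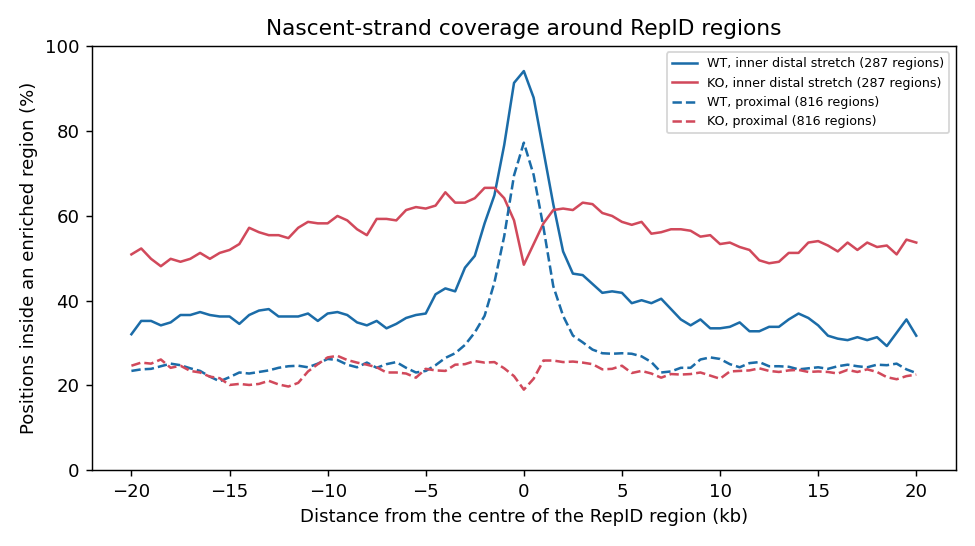
Share of RepID regions with a KO or a WT region at each distance from the RepID centre, in percent against distance in kb, for the inner distal stretch (287 regions) and proximal chromosome 10 (816 regions). KO coverage of the inner distal stretch is 48.4% at the centre and 66.6% at 2 kb before it, whereas WT coverage peaks at the centre with 94.1%.

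In the inner distal stretch the centre of 48.4% (42.5 to 54.4) of RepID regions lay in a KO region, whereas the share was 66.6% at 2 kb before the centre, 61.7% at 2 kb after it and 51.5% at 18 to 20 kb. WT regions covered 94.1% of the same centres and 33.2% of the positions at 18 to 20 kb. Below 100 Mb the KO shares were 19.0% (16.4 to 21.9) at the centre, 25.4% and 25.5% at 2 kb on either side and 23.7% at 18 to 20 kb. Around unbound WT origins of the inner distal stretch KO coverage was instead highest at the centre, 86.5%, and fell to 63.6% at 18 to 20 kb. Around bound WT origins it was 64.7% at the centre, at most 71.0% (1 kb before it) and 51.4% at 18 to 20 kb. KO coverage at the RepID centres of the inner distal stretch was thus lower than at 2 kb on either side, but its interval held the value at 18 to 20 kb. Below 100 Mb the interval at the centre lay below the value at 18 to 20 kb. RepID regions that lie close together share positions in such a profile.

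RepID regions were unevenly placed within the stretch. The bin at 102 Mb held the most, 26, and the bins at 107, 117 and 130 Mb held none. RepID and WT counts per bin had a Spearman's rho of 0.32 over the 31 bins of the inner distal stretch and 0.67 over the 98 bins below 100 Mb, and RepID and KO counts had 0.29 and 0.32. The RepID region of highest score on distal 10q, chr10:132158213-132159227 (3114), lay in the KO-poor end with no KO region within 135373 bp. The next, chr10:127584106-127585766 (2741), lay in the inner distal stretch, 38305 bp from the nearest KO region. The third, chr10:119302461-119304091 (1669), was 2909 bp from a KO region, and the 2 after it, chr10:118999619-119001449 (1392) and chr10:122215673-122217847 (1290), overlapped one. The strongest binding sites were thus found with and without KO initiation.

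Single origins showed how the lists met. The widest WT origin of distal 10q, chr10:126274001-126321400, was 47400 bp wide with a score of 13796, had no RepID region within 87654 bp and was 73.0% covered by KO regions. The bound origins chr10:104151201-104185800 (12225), chr10:102963401-103000600 (8096), chr10:102752401-102784400 (6878) and chr10:102487401-102521800 (6444) were 58.4%, 95.2%, 65.0% and 76.7% covered. Among KO regions of the inner distal stretch the highest scores belonged to chr10:114735601-114783200 (3194, the widest of distal 10q at 47600 bp), chr10:120362601-120404400 (2422), chr10:119231001-119271200 (2346) and chr10:106870801-106912800 (2267).

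The 5 bound WT origins of highest score without a KO region all lay beyond the edge. They were chr10:134034401-134074200 (4916), chr10:134262801-134283400 (3109), chr10:134207201-134228000 (3086), chr10:134971601-134983800 (1686) and chr10:134784801-134800000 (1442). In the inner distal stretch the highest such scores were lower. The highest was chr10:103453601-103455600 (1099), bound at chr10:103453750-103454818, with the nearest KO region 2400 bp away. Next came chr10:127582601-127586000 (740), which held the second strongest RepID region of distal 10q and had no KO region within 36800 bp. A further 3, chr10:104208601-104213800 (521), chr10:103577001-103580400 (449) and chr10:121011001-121017200 (350), lay 1600, 600 and 2400 bp from a KO region. Of these 5 origins of the inner distal stretch, 4 had a KO region within 2400 bp. KO regions covered 53.5% of that stretch with a median gap of 2.4 kb between them, so such distances are common there whatever the binding. No share over all origins without a KO region is given here, and these 5 carry no result about bound origins.

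KO regions also lay within 2 kb of a WT region more often here. In the inner distal stretch 1518 of 2807 KO regions (54.1%) had a WT region within 2 kb, against 36.7% of the whole KO list and 36.7% below 100 Mb. The other 1289 lay farther from any WT region. The WT list was itself denser on distal 10q, and the part of that density in this share was not tested. The ratio of KO coverage inside WT regions to that outside them went the other way, with 1.85 in the inner distal stretch and 3.004 below 100 Mb.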

How the data were processed

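Nascent strand DNA of HCT116 WT and RepID KO cells and anti-Flag ChIP DNA of U2OS cells, 1 library each, were sequenced by the authors and deposited as lists of regions with a score per region. The deposited score of the RepID list is that of MACS. The study's methods name SICER with windows of 200 bp for nascent strands, but for U2OS cells. For the HCT116 lists the programme and the meaning of the whole-number score are not given in the sources used here. The submitters' processing notes name hg19, MACS and SICER. Region edges of the nascent strand lists lie on a grid of 200 bp and their smallest gap is 800 bp, so closer calls are joined. Depth is unknown.

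Overlaps, gaps, covered bases, 1 Mb bins and intervals were computed from the lists in Python 3.11.15 (numpy 2.4.6, pandas 2.3.3, SciPy 1.17.1, matplotlib 3.10.9), and tested on simulated data against bedtools 2.31.1. A region belongs to the bin that holds its start. No test was run, since each condition has 1 library. Regions were named by rank: the 5 highest scores of each list, of bound origins kept and of those without a KO region, the 3 widest WT and KO regions, the longest gaps and the extreme bins. The origins without a KO region before the edge were added after their values were seen. So were the edge, the bin threshold of 40%, the classes of WT coverage, the KO-covered split and the profiles. The members and lists were chosen with earlier results of these data known. No gene or sequence is given, because no hg19 annotation or genome was used here. Alternatives varied the score cut, list length, overlap, gap, bin width and membership.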

Additional observations from a re-analysis of the deposited data

How the results depend on the processing

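Of 53 alternatives, 19 left the value within its counting interval, within 1 Mb for a split or within 1.5 times for the ratio of covered bases, which ranged from 1.92 to 2.45, and 34 moved it. Each cause beyond the construction of the alternative was not tested. KO regions per WT region on distal 10q were 1.93 with scores at or above each list's median, 1.03 with a KO list as long as the WT list, 1.22 with regions under 1 kb apart merged and 1.57 before the KO-poor end. With lists of equal length the value below 100 Mb was 0.945, so the order of the distal and proximal ratios turned over. The kept share of distal WT origins was 74.2% at 50% coverage, 82.2% with a gap of 2 kb, 74.4% with KO scores at or above the median, 74.3% with equal lists and 92.1% before the KO-poor end. Below 100 Mb the first 4 of these gave 43.6%, 71.4%, 41.9% and 41.7%, and WT scores at or above the median gave 66.8%. In the same 5 settings as the distal share, bound distal origins were kept at 65.8%, 82.9%, 70.9%, 70.9% and 87.0%, and unbound ones at 75.2%, 82.1%, 74.8%, 74.7% and 92.8%. The bound share was 14.95% with a gap of 5 kb, 6.60% with the upper scores of the RepID list and 17.0% with those of the WT list. Below 100 Mb, in alternatives chosen after seeing the data, it was 22.9%, 13.8% and 27.2% in these settings and 16.9% with overlap required. RepID density was 4.48 per Mb with its upper scores, a list cut to its upper part by construction. The split of the count ratio moved to 126 Mb in bins of 2 Mb, where the minimum of 5 bins on each side allows no later one, as it also did at 131 Mb in bins of 1 Mb. The KO-covered split stayed between 99.5 and 100 Mb in the 4 alternatives tried, which were chosen after seeing the data. No paired analysis was possible because each condition has 1 library.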
